A study of Mus musculus with 6 samples.

Results

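The proteasome genes examined here were the 53 rows, of 55401 genes in the count table, whose mouse symbol begins with Psma, Psmb, Psmc, Psmd, Psme, Psmf or Psmg followed by a digit, together with Pomp, Adrm1 and Sem1. Of the 57 rows that matched, 4 were pseudogenes and were left out. By role, 8 of the 53 encode alpha subunits of the core particle, 7 its constitutive beta subunits, 3 the immunoproteasome subunits and 1 the thymoproteasome subunit. A further 6 encode ATPases of the base, 4 its other subunits and 9 the lid. The remaining genes are 6 activators or inhibitors, 5 assembly chaperones of the core, 3 of the base, and Psmc3ip, which only shares the name: it was named for binding Psmc3 and acts in meiotic recombination.

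Bulk RNA sequencing was performed on 6 samples of cultured mouse T cells. The 3 samples of the NFL group were from T cells that received supernatant of NFL-activated macrophages. These macrophages had been given NFL (neurofilament light chain, part of the axonal cytoskeleton) at 5 µg/mL over 24 h. The 3 samples of the control group were from T cells that received supernatant of macrophages without NFL. The comparison asks which T-cell transcripts change when soluble products of the NFL-activated macrophages replace those of control macrophages. In both groups, the T cells had been selected from spleen with beads against CD8a, the macrophages had been grown from splenic CD11b+ cells in 50 ng/mL M-CSF during 7 days, and the supernatant formed 50% of a medium that held 2% serum. The sources differ on the NFL. The deposited design describes a preparation from freeze-thawed sciatic nerve, whereas the paper's methods for tumor-bearing mice name a purchased protein. For macrophages in co-culture and for cell lines, the paper's methods give NFL doses in ng/mL, below the 5 µg/mL of these samples. The paper's animal work used young adult female C57BL/6 and NOD-SCID mice, and the sources used here do not state which mice gave the cells of these cultures or how long these T cells spent in the supernatant. Nothing states that the 3 samples of a group were separate animals or separate cultures, so the p-values measure only the spread between these samples, which may be technical.

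The proteasome degrades proteins marked with ubiquitin. Its core particle is a barrel of stacked rings in which alpha subunits form the gate and beta subunits carry the cutting sites, and its regulatory particle has a base, whose ATPases unfold the substrate, and a lid, which removes the ubiquitin. In lymphocytes, and in many cells after interferon gamma, the catalytic beta subunits Psmb5, Psmb6 and Psmb7 can be replaced during assembly by Psmb8, Psmb9 and Psmb10, and the resulting immunoproteasome is known for making peptides for presentation on MHC class I.

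Promoter sequences are shown for 5 genes on which the results turn: Psma5 and Psmc6, the genes of the core and of the base with the smallest adjusted p, and Psmb5, Psmb9 and Psmb10, a constitutive catalytic subunit and a pair of immunoproteasome subunits, which did not pass the test. Each window holds 250 bases before and 50 bases after the start that RefSeq gives on GRCm38.p6, on the gene's own strand from 5′ to 3′. The windows lie at chr3:108256676-108256975 (Psma5, plus strand), chr14:45329574-45329873 (Psmc6, plus strand), chr14:54617946-54618245 (Psmb5, minus strand), chr17:34187281-34187580 (Psmb9, minus strand) and chr8:105938343-105938642 (Psmb10, minus strand). Capitals mark a match to any of 3 motifs that were searched on both strands and are described with their shares in all promoters after the results.
Psma5: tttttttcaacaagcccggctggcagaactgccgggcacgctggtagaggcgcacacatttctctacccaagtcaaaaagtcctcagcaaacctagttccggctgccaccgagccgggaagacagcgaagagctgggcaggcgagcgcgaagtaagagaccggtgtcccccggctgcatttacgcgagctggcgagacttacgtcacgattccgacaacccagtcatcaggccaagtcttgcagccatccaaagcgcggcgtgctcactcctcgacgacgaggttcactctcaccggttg
Psmc6: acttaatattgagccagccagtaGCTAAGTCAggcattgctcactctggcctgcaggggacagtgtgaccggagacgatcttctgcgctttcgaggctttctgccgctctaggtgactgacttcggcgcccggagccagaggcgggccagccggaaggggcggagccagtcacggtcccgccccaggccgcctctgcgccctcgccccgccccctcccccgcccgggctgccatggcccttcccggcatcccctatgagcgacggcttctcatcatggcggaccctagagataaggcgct
Psmb5: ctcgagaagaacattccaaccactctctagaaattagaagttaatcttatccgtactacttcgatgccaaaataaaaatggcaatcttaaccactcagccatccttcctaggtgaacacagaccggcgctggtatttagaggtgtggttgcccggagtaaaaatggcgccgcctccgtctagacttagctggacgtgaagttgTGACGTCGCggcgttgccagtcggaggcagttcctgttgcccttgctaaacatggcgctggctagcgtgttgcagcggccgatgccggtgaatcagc
Psmb9: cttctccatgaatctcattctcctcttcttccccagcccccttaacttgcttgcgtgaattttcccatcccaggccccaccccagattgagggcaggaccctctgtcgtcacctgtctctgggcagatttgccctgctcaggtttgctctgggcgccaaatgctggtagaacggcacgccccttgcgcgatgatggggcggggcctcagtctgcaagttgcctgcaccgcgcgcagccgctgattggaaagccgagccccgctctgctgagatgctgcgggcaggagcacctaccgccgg
Psmb10: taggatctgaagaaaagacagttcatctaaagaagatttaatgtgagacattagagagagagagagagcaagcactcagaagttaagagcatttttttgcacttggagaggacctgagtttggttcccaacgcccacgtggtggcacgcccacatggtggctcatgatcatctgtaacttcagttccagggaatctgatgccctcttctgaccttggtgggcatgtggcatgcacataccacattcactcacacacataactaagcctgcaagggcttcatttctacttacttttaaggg
The RefSeq start was the outermost GENCODE start for Psma5, and lay 36, 27, 52 and 434 bases inside the GENCODE gene for Psmc6, Psmb5, Psmb10 and Psmb9. The window of Psmb8, whose RefSeq start lay 474 bases inside the GENCODE gene, is not shown. The Psmb9 window shared 275 of its 300 bases with that of Tap1, a subunit of the peptide transporter, which is transcribed in the opposite direction from a start 226 bases away.

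The libraries held 15843045 to 24639756 counts, and 14082 genes had enough counts to be tested. Levels are given in CPM (counts scaled to library size, with TMM factors), and 3 counts correspond to 0.122 to 0.189 CPM. A gene is said to have risen or fallen where edgeR's quasi-likelihood test gave a Benjamini-Hochberg adjusted p below 0.05 over all genes tested. Of the T-cell markers, the median over all libraries was 1640 CPM for Thy1, 53.6 for Cd3e, 25.7 for Cd4, 3.92 for Cd8a, 1.59 for Trac and 1.28 CPM for Cd8b1. The transcripts of CD8, the molecule used for selection, and of Trac were thus low, and Cd4 was above Cd8a. The cells are called T cells here as in the sources, and these levels do not settle what they are. Of 10 macrophage markers, 9 were below 1 CPM and C1qa, C1qb, Mrc1, Itgam and Cd14 were at 0 in every library, and their sum, which is nearly all Cd68, was 24.6 to 27.5 CPM with control and 19.2 to 23.5 CPM with NFL supernatant. The summed natural killer list, mostly Nkg7 and Eomes with Ncr1 at 0, was 1180 to 1240 CPM with control and 1150 to 1180 CPM with NFL supernatant. The summed T-cell list, which is nearly all Thy1, was 1760 to 1860 and 1710 to 1800 CPM. Its members Cd3g and Cd3d had medians of only 7.63 and 4.15 CPM. Within these lists, Cd3e was at 62.1, 64.6 and 56.4 CPM with control and 50.6, 49.1 and 50.8 CPM with NFL supernatant. Klrb1c, a natural killer receptor, was at 32.5, 29.7 and 32.9 CPM against 22.4, 22.7 and 22.0 CPM. Both were lower in every NFL library, which held for 11.2% of all genes tested. The groups of the other T-cell and natural killer markers, Thy1, Cd4, Cd247, Nkg7 and Eomes included, overlapped, apart from Klrk1 and Ncr1 at or near 0. Summed B-cell markers were 12.1 to 13.2 and 11.6 to 14.1 CPM, dendritic-cell markers 1.87 to 2.95 and 1.47 to 2.86 CPM, and erythroid markers 1.32 to 1.47 and 0.988 to 1.99 CPM. Whether these differences have a part in the results below was not tested.

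With NFL supernatant, 10 proteasome genes rose and 0 fell. All 10 are among the 33 tested genes of the constitutive core and regulatory particles. Of the other 18 tested genes, only 6 of which had a mean of at least 100 CPM, 0 rose, and the difference between these groups of genes was not tested. The rises were small, between 7.44% and 10.7%. Of the 51 proteasome genes tested, 10 (19.6%) passed the test in the higher direction, where 489 of all genes tested (3.47%) did so, and 497 of all genes (3.53%) fell. At an unadjusted p below 0.05, edgeR gave 20 proteasome genes higher (39.2%, against 9.72% of all genes and 22.0% of those with a mean of at least 100 CPM) and 0 lower (against 9.53% and 13.7%). With adjustment, DESeq2 gave 9 higher and 0 lower (2.65% and 2.54% of all genes), and limma-voom gave 10 higher and 0 lower (3.66% and 3.29% of all genes). The proteasome genes are mostly abundant, and abundant genes passed more often: among the 2655 genes with a mean of at least 100 CPM, 10.4% rose and 7.34% fell, against 10 and 0 of 37 proteasome genes of that abundance (27.0% rose). The difference between these shares was not tested.

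The mean was higher with NFL supernatant for 40 of the 51 genes (78.4%, against 49.6% of all genes tested and 56.2% of the abundant ones). Their median log2 fold change was 0.062, or 4.37%, beside -0.00099 over all genes tested. All 3 NFL libraries lay above all 3 control libraries for 18 genes (35.3%), where this held for 11.5% of all genes and 22.7% of the abundant ones. The reverse held for Psmg4 alone (1.96%, against 11.2% of all genes and 14.7% of the abundant ones, to which Psmg4 does not belong). Taken as a sum, the 53 genes took 0.949%, 0.944% and 0.939% of the counts in control replicates 1 to 3 and 0.979%, 0.974% and 0.980% in NFL replicates 1 to 3, a mean of 0.944% ± 0.0053 against 0.978% ± 0.0031 (SD, n = 3 each). The lowest NFL library was above the highest control library. These are shares of RNA from whole cultures, in which fewer cells of a type and less RNA per cell cannot be told apart.

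**Figure D1:**
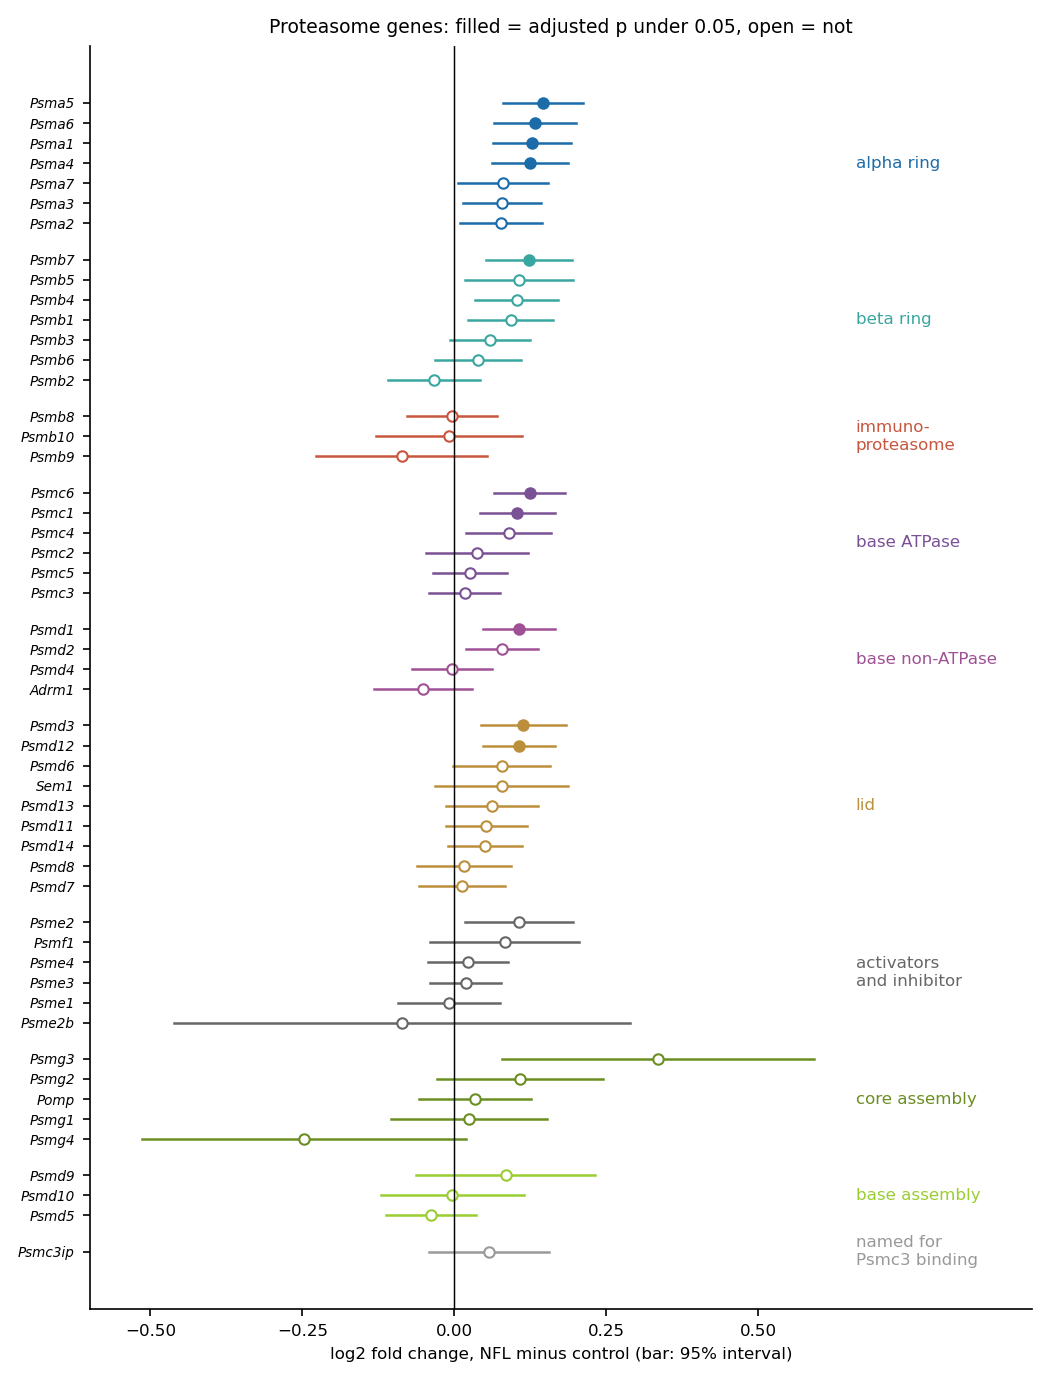
Log2 fold change, NFL minus control, of the 51 proteasome genes tested, by role, with 95% intervals (filled points, adjusted p below 0.05 with edgeR). All 7 alpha-ring genes tested lie to the right of 0, the 3 immunoproteasome genes lie at or just left of it, and the widest intervals belong to the scarce Psme2b, Psmg3 and Psmg4.

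The alpha ring gates the entry to the core. All 7 tested alpha genes had a higher mean and an unadjusted p below 0.05, which 22.0% of genes of at least 100 CPM had in this direction, and 4 rose: Psma5, Psma6, Psma1 and Psma4. The class median was a log2 fold change of 0.12 (8.99%). Psma5 was at 219, 212 and 213 CPM in the control libraries and at 231, 237 and 244 CPM in the NFL libraries. The groups did not overlap, and Psma5 rose by 10.7% (95% interval 5.75% to 15.8%, log2 fold change 0.15, SE 0.033, edgeR adjusted p = 0.00206). Psma6 was at 208, 212 and 201 CPM with control and 222, 224 and 234 CPM with NFL supernatant. It rose by 9.63% (log2 fold change 0.13, SE 0.033, edgeR adjusted p = 0.00721), again with no overlap.

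Psma1 went from 244, 239 and 241 CPM to 262, 258 and 271 CPM, a rise of 9.24% (log2 fold change 0.13, SE 0.032, edgeR adjusted p = 0.00639). Psma4 went from 290.1, 281 and 289.7 CPM to 312, 323 and 304 CPM, a rise of 8.99% (log2 fold change 0.12, SE 0.031, edgeR adjusted p = 0.00684). Neither gene's groups overlapped. The other 3, Psma2, Psma3 and Psma7, did not pass the test, with log2 fold changes of 0.076 to 0.080 and adjusted p of 0.147 to 0.207; Psma2 had the lowest change of the ring. Calls of the ring were lost when single libraries were left out, with log2 fold changes of the genes that rose between 0.104 and 0.169. Without NFL replicate 3, the adjusted p was 0.0529 for Psma5, 0.0998 for Psma1 and 0.118 for Psma6, without control replicate 3 it was 0.0652 for Psma6, and without NFL replicate 2 it was 0.096 for Psma4.

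The constitutive beta ring had 6 of 7 genes with a higher mean and a median log2 fold change of 0.093, but only Psmb7 rose. Psmb7, which carries the trypsin-like site, was at 158, 157 and 168 CPM with control and 174, 174 and 177 CPM with NFL supernatant. All NFL libraries were above all control libraries, and the rise was 8.85% (95% interval 3.61% to 14.4%, log2 fold change 0.12, SE 0.035, edgeR adjusted p = 0.0230). Psmb7 shares 405 exon bases with Nek6 on the opposite strand, and Nek6 held 66 to 161 counts in any library. The Psmb7 call was lost without control replicate 1 (adjusted p = 0.113), control replicate 2 (0.0621), NFL replicate 2 (0.0547) or NFL replicate 3 (0.127), and also when libraries were scaled by their totals only (0.0519) or corrected for GC content and gene length (0.103). With the correction for GC content and gene length, Psmb1 and Psmb4 passed instead. Psmb4 also passed with the replicate number as a block, with thinned counts and without control replicate 1. Which gene of the ring passed thus depended on the setting.

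The other catalytic subunits of the ring did not pass. Psmb5, which carries the chymotrypsin-like site, was at 95.6, 94.8 and 88.0 CPM with control and 95.4, 104 and 99.8 CPM with NFL supernatant. Its groups overlapped through NFL replicate 1, and its log2 fold change was 0.11 (95% interval 0.017 to 0.20, edgeR adjusted p = 0.155). Psmb6, which carries the caspase-like site, was at 161, 164 and 161 CPM against 170.1, 168 and 161 CPM (log2 fold change 0.038, edgeR adjusted p = 0.627). NFL replicate 3 lay level with the lowest control libraries for Psmb6. Of the structural subunits, Psmb2 had the lowest change of the ring, -0.033 (edgeR adjusted p = 0.710), and the other 3 lay between 0.059 and 0.10 with adjusted p of 0.0567 to 0.334.

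No immunoproteasome subunit rose or fell. Of the 3, 0 passed the edgeR test, the count at an unadjusted p below 0.05 was also 0, and 0 passed under any of the 16 alternative settings, DESeq2 and limma-voom included. Psmb8, which replaces Psmb5, was at 169, 172 and 167 CPM with control and 179, 168 and 159 CPM with NFL supernatant. NFL replicate 1 was the highest of the 6 libraries and NFL replicate 3 the lowest. The log2 fold change was -0.0037 (95% interval -0.078 to 0.071, SE 0.037, edgeR adjusted p = 0.976), an interval of -5.27% to 5.02%, and its sign differed between settings.

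Psmb9, which replaces Psmb6, was at 31.8, 33.1 and 33.9 CPM with control and 33.0, 29.6 and 30.6 CPM with NFL supernatant. NFL replicates 2 and 3 were below the control libraries and NFL replicate 1 was among them. Its log2 fold change was -0.087 (95% interval -0.23 to 0.054, SE 0.070, edgeR adjusted p = 0.566), and it was -0.13 without NFL replicate 1 and -0.050 without NFL replicate 2. Psmb9 shares 212 exon bases with Tap1 on the opposite strand, and how strand was used in counting is not given in the sources used here. Psmb10, which replaces Psmb7, was at 45.1, 44.2 and 43.8 CPM against 42.3, 45.3 and 44.7 CPM, with overlapping groups and a log2 fold change of -0.0087 (95% interval -0.13 to 0.11, SE 0.060, edgeR adjusted p = 0.963). Its sign, too, changed when single replicates were left out.

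**Figure D2:**
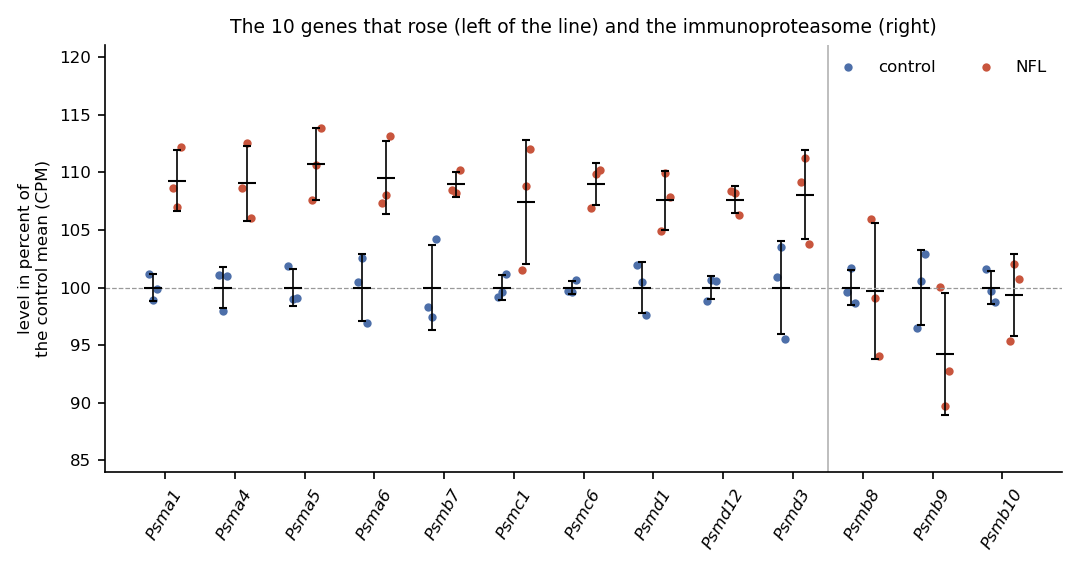
Level of each gene in every library (points, in percent of that gene's control mean) with mean and SD, for the 10 genes that rose and the immunoproteasome subunits; the vertical axis starts at 84%. The 10 genes on the left have every NFL point above every control point, whereas the groups of Psmb8, Psmb9 and Psmb10 overlap.

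Because both counts of a ratio come from the same library, the ratio of an immunoproteasome subunit to its partner does not depend on scaling between libraries. The log2 ratio of Psmb10 to Psmb7 was -1.81, -1.82 and -1.94 with control and -2.04, -1.94 and -1.99 with NFL supernatant, a difference of -0.13 (control -1.86 ± 0.069, NFL -1.99 ± 0.051, SD, n = 3 each). The log2 ratio of Psmb9 to Psmb6 was -2.34, -2.30 and -2.25 against -2.37, -2.50 and -2.39, a difference of -0.13 (control -2.30 ± 0.048, NFL -2.42 ± 0.073, SD, n = 3 each). The groups did not overlap for either ratio, although control replicate 3 and NFL replicate 2 lay within rounding of each other for Psmb10 to Psmb7. For both, the two-sided exact permutation test gave p = 0.1, below which 3 against 3 samples cannot go, and p = 0.15 after adjustment over the 3 ratios. The log2 ratio of Psmb8 to Psmb5 was 0.82, 0.86 and 0.93 against 0.91, 0.69 and 0.68, and NFL replicate 1 lay within the control range. Its difference was -0.11 (control 0.87 ± 0.053, NFL 0.76 ± 0.13, SD, n = 3 each, exact permutation p = 0.3, adjusted 0.3), and it was -0.19 without NFL replicate 1 and -0.069 without NFL replicate 3. The difference was -0.083 without NFL replicate 2 for Psmb9 to Psmb6, and lay between -0.17 and -0.11 for Psmb10 to Psmb7 when a replicate was left out.

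**Figure D3:**
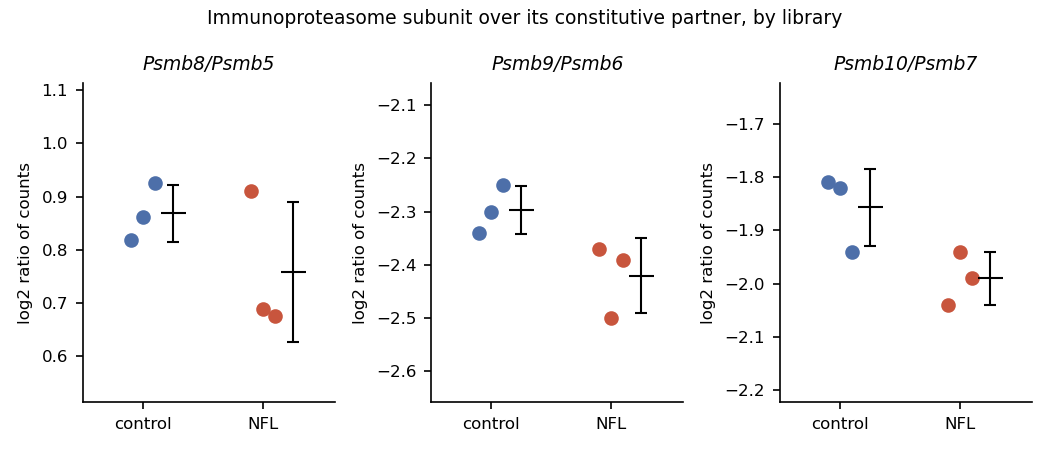
Log2 ratio of the counts of each immunoproteasome subunit to those of the constitutive partner it replaces, per library (points), with mean and SD of 3 libraries; each panel spans 0.6 log2 units on an axis of its own. The mean is lower with NFL supernatant in all 3 panels, and 1 NFL library lies among the controls for Psmb8/Psmb5.

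Set per kilobase of annotated exon, Psmb8 made up 32.7% ± 0.82 of the Psmb8 and Psmb5 pair with control and 31.0% ± 2.0 with NFL supernatant (SD, n = 3 each). Psmb10 made up 35.7% ± 1.1 and 33.6% ± 0.79 of its pair, and Psmb9 9.43% ± 0.29 and 8.72% ± 0.40 of its pair. Per kilobase, the constitutive partner of each pair was thus the higher in every library. For Psmb8 and Psmb5 this order rests on exon lengths of 3381 and 899 bases. Before division by length Psmb8 was the higher, at 169 against 92.8 CPM with control. Exon length was taken as the union of annotated exons. These shares, and the order of Psmb8 and Psmb5, therefore depend on the isoforms in use.

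In the base of the regulatory particle, all 6 ATPase genes had a higher mean (median log2 fold change 0.063), and Psmc6 and Psmc1 rose. Psmc6 was at 356, 356 and 359 CPM in the control libraries and at 381, 392 and 393 CPM in the NFL libraries. The control libraries lay within 4 CPM of each other and all NFL libraries lay above them. The rise was 8.95% (95% interval 4.59% to 13.5%, log2 fold change 0.12, SE 0.029, edgeR adjusted p = 0.00414). Psmc6 passed under all 16 alternative settings, with a highest adjusted p of 0.0492. Its log2 fold change was smaller, 0.0952, with offsets for GC content and gene length. Psmc1 was at 410.3, 412 and 419 CPM against 419.9, 450.1 and 463 CPM. NFL replicate 1 was barely above the highest control library, and the rise was 7.44% (log2 fold change 0.10, SE 0.031, edgeR adjusted p = 0.0287). The Psmc1 call was lost without NFL replicate 3 (adjusted p = 0.314), NFL replicate 2 (0.121) or control replicate 1 (0.0958), and with library size alone (0.0672). The other 4 ATPases had log2 fold changes of 0.017 to 0.089, the lowest in Psmc3 (edgeR adjusted p = 0.826).

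Of the 4 other base subunits, Psmd1, the large scaffold subunit, rose. It was at 436, 429 and 417 CPM with control and 448, 469.9 and 461 CPM with NFL supernatant. The groups did not overlap, and the rise was 7.61% (log2 fold change 0.11, SE 0.029, edgeR adjusted p = 0.0168). The call was lost without NFL replicate 2 (adjusted p = 0.13), control replicate 3 (0.0988) or NFL replicate 3 (0.0958). The ubiquitin receptor Adrm1 had the lowest change of the base, with 169, 183 and 169.7 CPM against 183, 161 and 159 CPM. Control replicate 2 and NFL replicate 1 were its 2 highest libraries, and its log2 fold change was -0.052 (edgeR adjusted p = 0.538). It lay between -0.11 (without NFL replicate 1, edgeR adjusted p = 0.0995) and -0.013 (without control replicate 2) when a replicate was left out.

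In the lid, all 9 genes had a higher mean (median log2 fold change 0.062), and the structural subunits Psmd3 and Psmd12 rose. Psmd12 was at 365, 372 and 371 CPM with control and 400.2, 399.7 and 393 CPM with NFL supernatant. The rise was 7.65% with no overlap (log2 fold change 0.11, SE 0.029, edgeR adjusted p = 0.0151), and the adjusted p was 0.0691 without control replicate 1 and 0.0738 without NFL replicate 2. Psmd3 was at 208, 213 and 197 CPM against 224, 229 and 213 CPM. NFL replicate 3 lay less than 1 CPM above control replicate 2. The rise of Psmd3 was 8.18% (log2 fold change 0.11, SE 0.035, edgeR adjusted p = 0.0328), and it was the least stable of the 10, along with Psmb7: each passed in 9 of 16 alternative settings. Its adjusted p was 0.0631 without control replicate 1, 0.235 without control replicate 3, 0.109 without NFL replicate 1, 0.204 without NFL replicate 2, 0.0718 with library size alone, 0.0577 with counts thinned to the smallest library and 0.0709 with DESeq2. Psmd7, which pairs with the deubiquitinase Psmd14, had the lowest change of the lid, 0.013 (edgeR adjusted p = 0.902), and its sign was negative with library size alone.

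**Figure D4:**
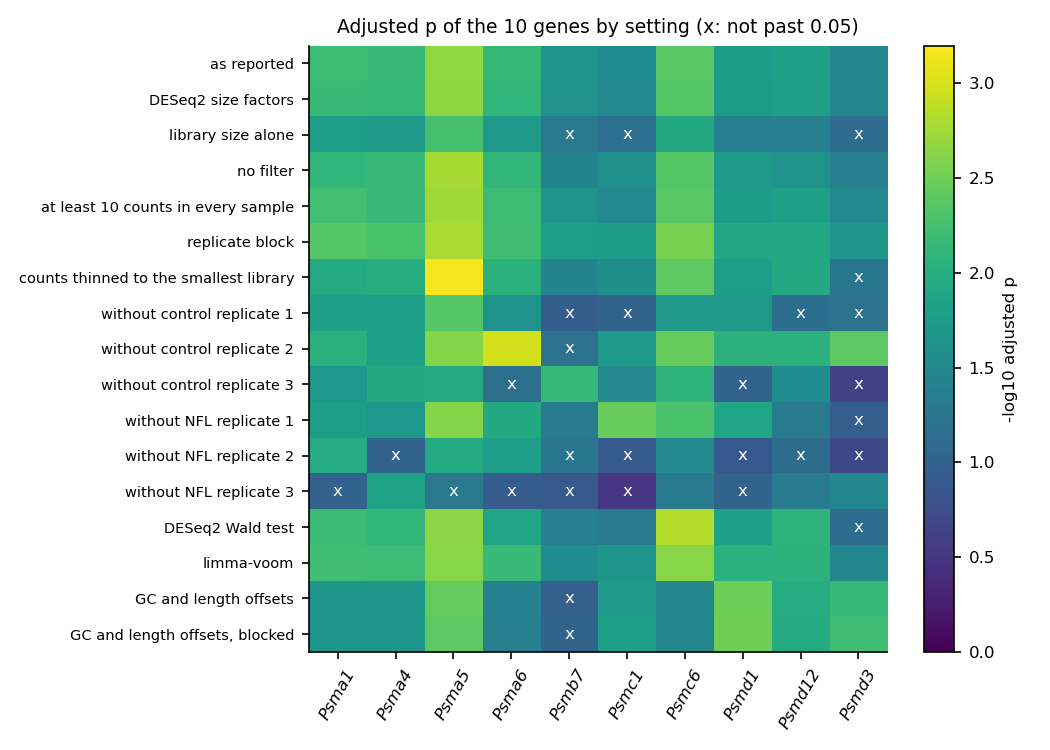
Adjusted p (color, -log10 scale) of the 10 genes that rose, as reported (top row) and under 16 alternative settings, with x where the gene did not pass 0.05. Psmc6 has no x, Psmb7 and Psmd3 have 7 each, and the rows that leave out NFL replicate 2 or 3 have the most.

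The number of proteasome genes that rose changed when single libraries were left out. It was 4 without NFL replicate 2 and 4 without NFL replicate 3, 7 without control replicate 3, 8 without control replicate 1, and 10 without either of the others. The number of genes that rose in the whole table also changed with these libraries, from 489 to 318 without NFL replicate 2 and to 250 without NFL replicate 3. The median log2 fold change of the proteasome genes stayed between 0.049 and 0.075 over these 6 settings, and 0 genes fell in any of them. The log2 fold changes of the 10 genes ran from 0.0727 (Psmc1) to 0.169 (Psma5) in these settings. Each setting also has fewer libraries. Whether calls were lost through the library left out or through the smaller number was not tested.

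The activators and the inhibitor cap the core in place of the regulatory particle or hold it back. None of the 6 passed the edgeR test, 1 was higher and 0 lower at an unadjusted p below 0.05, and their median log2 fold change was 0.021. Psme2, which forms the interferon-inducible activator with Psme1, had the highest change, with 91.2, 86.9 and 87.6 CPM against 94.1, 92.2 and 99.8 CPM. Its groups did not overlap, but its log2 fold change of 0.11 did not pass (SE 0.044, edgeR adjusted p = 0.155). The near-copy Psme2b had the lowest change, at 3.64 to 4.83 CPM with control and 3.29 to 4.83 CPM with NFL supernatant (log2 fold change -0.087, SE 0.19, edgeR adjusted p = 0.865). Reads of Psme2 and Psme2b can be exchanged in counting, so both values are uncertain. The partner Psme1, the nuclear activators Psme3 and Psme4 and the inhibitor Psmf1 had log2 fold changes of -0.0082 to 0.083.

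The 8 assembly chaperones, which guide subunits into rings, gave 0 calls with edgeR and 1 higher and 0 lower at an unadjusted p below 0.05. The widest changes of the whole set lay in the pair Psmg3 and Psmg4, which work as one complex in building the alpha ring, and they pointed in opposite directions. Psmg3 was at 7.11, 7.78 and 7.86 CPM with control and 10, 9.88 and 8.78 CPM with NFL supernatant (log2 fold change 0.33, SE 0.13, edgeR adjusted p = 0.111). Psmg4 was at 9.47, 8.47 and 7.90 CPM against 7.33, 7.50 and 6.97 CPM (log2 fold change -0.25, SE 0.13, edgeR adjusted p = 0.308). The groups did not overlap for either gene, and neither passed the test. At 26.5 to 30.3 CPM, the base chaperone Psmd9 had the highest change of its class (log2 fold change 0.084, edgeR adjusted p = 0.600), and Psmd5 the lowest (-0.038, edgeR adjusted p = 0.640). Psmc3ip had a log2 fold change of 0.057 (edgeR adjusted p = 0.597) and shares 385 exon bases with Mlx on the opposite strand.

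The 2 genes not tested are known from other tissues. Psma8, the alpha subunit of the testis, had 0 counts in 5 libraries and 1 in NFL replicate 1, at or below the floor of 3 counts. Psmb11, the catalytic subunit of cortical thymic epithelium, had 9, 3 and 5 counts with control and 0, 2 and 3 counts with NFL supernatant, which is 0.37, 0.19 and 0.21 CPM against 0, 0.12 and 0.17 CPM. Both groups are near the floor, and no fold is given.

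Per kilobase of exon, the 32 constitutive core and regulatory particle genes with a length had a median level of 84.1 CPM per kb in the control libraries, from 16.6 for Sem1 to 270.0 for Psmc5. Within the alpha ring the levels went from 48.1 (Psma7) to 168 CPM per kb (Psma6). These levels depend on the union exon lengths used, 3071 bases for Psma7 and 1234 for Psma6. Before division by length, Psma7 was at 148 and Psma6 at 207 CPM with control. Psme3 reached 214 CPM per kb, while Psmb8, Psmb10 and Psmb9 were at 50.1, 26 and 9.01 CPM per kb. The assembly chaperones ranged from 2.62 (Psmg3) to 32.2 CPM per kb (Psmd10).

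**Figure D5:**
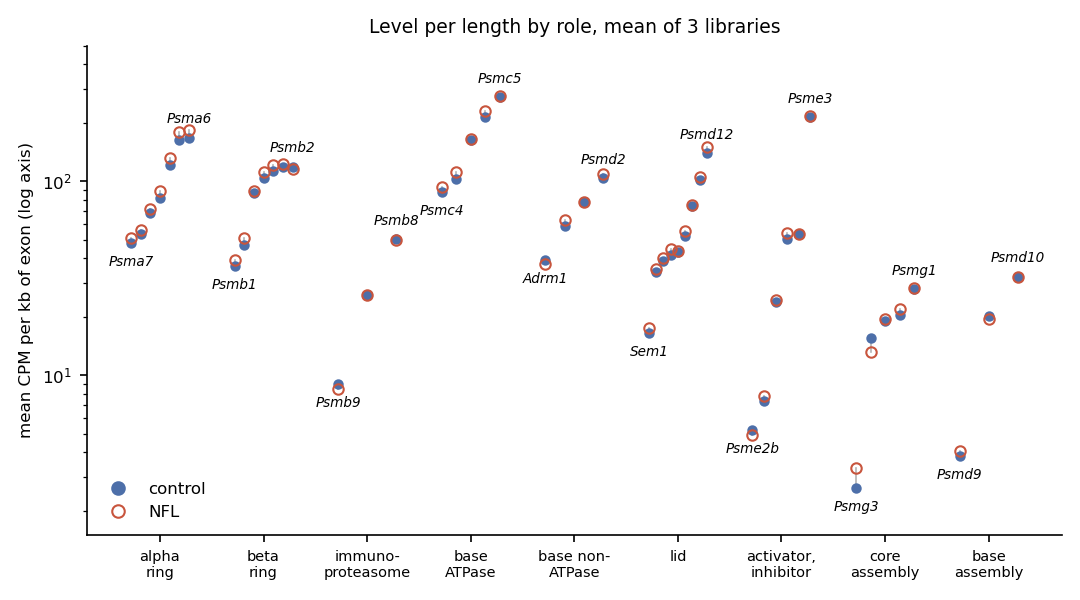
Mean CPM per kb of exon (log axis) of the proteasome genes by role, with control (filled) and NFL (open) means of 3 libraries. Levels within a role span up to 41.2 times (activators and inhibitor), far more than the distance between the groups for any gene.

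Genes that work with the proteasome were examined as a list of 51, of which 50 were in the table and 48 were tested. Of the 48, 4 rose (8.33%, against 3.47% of all genes) and 1 fell (against 3.53%). Of the 27 with a mean of at least 100 CPM, 4 rose (14.8%, against 10.4% of genes of that abundance), and over the 48 the median log2 fold change was 0.028. Of the 9 proteasome-bound enzymes and adaptors, Uchl5, the deubiquitinase that Adrm1 recruits, rose, from 155, 154 and 153 CPM to 158, 173 and 171 CPM (log2 fold change 0.12, SE 0.037, edgeR adjusted p = 0.0331). Its call was lost in 8 of 16 alternative settings, with adjusted p of 0.0729 and 0.0886 without control replicate 1 or 3, 0.219 and 0.186 without NFL replicate 2 or 3, and 0.0639 with DESeq2. None of the 12 ubiquitin shuttles and unfoldase genes and none of the 7 tested regulators of proteasome genes passed with edgeR, where 1 and 0 were higher and 0 and 1 lower at an unadjusted p below 0.05. These were Vcp, the unfoldase (log2 fold change 0.074, edgeR adjusted p = 0.0911), and Nfe2l2 (-0.20, edgeR adjusted p = 0.0549), both named after their values were seen. Nfe2l1, the transcription factor known to raise proteasome genes when the proteasome is inhibited, was at 179 to 188 CPM with control and 180.1 to 188 CPM with NFL supernatant (log2 fold change 0.011, edgeR adjusted p = 0.917), and its sign turned with library size alone.

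Of the 10 genes that process or load peptides after the proteasome, 3 rose and 0 fell. The 3 are among 7 of these genes with a mean of at least 100 CPM, an abundance at which 10.4% of all genes rose. B2m, the light chain of MHC class I, was at 736, 709 and 775 CPM with control and 856, 804 and 838 CPM with NFL supernatant. Its groups did not overlap, and it rose by 12.5% (log2 fold change 0.17, SE 0.029, edgeR adjusted p = 5.14e-05). Tapbp, the bridge between the peptide transporter and MHC class I, rose from 209.8, 219.5 and 205 CPM to 233, 230.4 and 234 CPM (log2 fold change 0.14, SE 0.033, edgeR adjusted p = 0.00442). The aminopeptidase Lap3 rose from 207, 205 and 214 CPM to 229, 221 and 232 CPM (log2 fold change 0.12, SE 0.033, edgeR adjusted p = 0.0121), and its adjusted p was 0.0548 without control replicate 1 and 0.116 without NFL replicate 3. B2m and Tapbp passed in all 16 alternative settings. With offsets for GC content and gene length, the log2 fold change of B2m was smaller, 0.107 (edgeR adjusted p = 0.011). Tap1, next to Psmb9, was at 101, 99.0 and 103 CPM against 101, 95.9 and 95.1 CPM (log2 fold change -0.053, edgeR adjusted p = 0.556).

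Of the 10 tested interferon regulators of the immunoproteasome, 0 rose and 1 fell, where 3.47% and 3.53% of all genes did so. At an unadjusted p below 0.05, edgeR gave 1 higher and 2 lower (against 9.72% and 9.53% of all genes). The mean was lower for 7 of the 10, with a median log2 fold change of -0.055. All 3 NFL libraries lay below all 3 control libraries for 3 of them, against 11.2% of all genes. Jak1, named after its values were seen, had a log2 fold change of -0.086 (edgeR adjusted p = 0.0702). Ifngr1, a chain of the receptor for interferon gamma, was at 116, 117 and 120.3 CPM with control and 92.8, 93.8 and 91.0 CPM with NFL supernatant. It fell by 21.6% with no overlap (log2 fold change -0.35, SE 0.041, edgeR adjusted p = 8.4e-09) and passed in all 16 alternative settings. Its partner Ifngr2 had 0 to 5 counts and was not tested. Irf1 was at 33.3 to 36.4 CPM against 35.5 to 36.2 CPM (log2 fold change 0.032, edgeR adjusted p = 0.859). Nlrc5, the activator of MHC class I genes, was at 85.6 to 89.6 CPM against 84.7 to 90.3 CPM (log2 fold change -0.016, edgeR adjusted p = 0.905), and its sign turned with offsets for GC content and gene length.

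Promoter windows were found in RefSeq for 45 of the 53 proteasome genes. The core of the antioxidant response element (TGACNNNGC), the motif bound by Nfe2l1 and Nfe2l2, was found in 12.4% of all 32851 windows and in 8 of the 45 genes (17.8%, against 14.0% of 27025 genes). Among the windows shown above, it begins 47 bases before the start of Psmb5 and 227 bases before that of Psmc6, there on the reverse strand. The gamma-activated site (TTCNNNGAA) was found in 8.3% of windows and in Psmb8, Psmd2 and Psmg1, which is 3 of 45 genes (6.67%, against 9.55%). The core of the interferon-stimulated response element (GAAA, any 2 bases, GAAA) was found in 3.44% of windows and in 5 of 45 genes, Psmb3, Psmd4, Psmd9, Psme1 and Psmg4 (11.1%, against 3.99%). Of the 8 genes that rose and had a window, 2 (Psmc6 and Psmd12) matched the first motif, 0 the second and 0 the third. The letters were searched on both strands, the 3 patterns can overlap in sequence, and a match is a description of the letters in these windows.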

How the data were processed

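From Illumina sequencing of poly(A)-selected RNA, the authors deposited raw read counts per gene, 1 column per sample, which were used unchanged. The submitters' processing notes name GRCm39, R 4.2.1 and limma 3.54.2; aligner, counter and strand setting are not given in the sources used here. Of 55401 identifiers, 54349 were identical to GENCODE M21 (GRCm38), which gave exon lengths, GC content and overlaps (52 of the 53 proteasome genes; Psmc2 differed in version). Symbols came from a table of gene names. Promoters came from RefSeq (GRCm38.p6), a build other than the one in the notes.

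In R 4.3.3, genes were filtered with filterByExpr (minimum count 10, minimum total 15), scaled by TMM and tested by edgeR 4.0.16 (quasi-likelihood, glmQLFTest), NFL against control, with Benjamini-Hochberg adjustment over 14082 genes and a threshold of 0.05. The biological coefficient of variation was 3.48%. Alternatives were other scalings and filters, thinned counts, the replicate number as a block, each replicate left out, DESeq2 1.42.0, limma-voom (limma 3.58.1) and offsets for GC content and gene length. The comparison with abundant genes was added after seeing the data. The scripts were tested on simulated data. Counting floors cover counting error only.

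The genes named are the catalytic pairs, all proteasome genes past the threshold, the highest and lowest change of each role, the genes not tested, related genes past the threshold with 5 set regulators or neighbours, and overlapping or marker genes. Other genes were named after their values were seen. The result of a gene that is withheld is not reported here, although counts over lists include it. The proteasome genes and all lists were chosen with earlier results of these data known.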

Additional observations from a re-analysis of the deposited data

How the results depend on the processing

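Over 16 alternative settings the number of proteasome genes that rose was 4 to 12, and 4 to 10 when a replicate was left out, and 0 fell. The median log2 fold change of the 51 genes was 0.0478 with library size alone and 0.0488 to 0.0747 when a replicate was left out; library size alone moved the median of all genes to -0.015, and gave 372 genes higher and 600 lower. Over all genes, leaving out a replicate gave 250 to 514 higher and 258 to 452 lower. Of the related genes, 2 to 5 rose (2 without control replicate 1 or NFL replicate 3) and 1 to 2 fell (2 without control replicate 2) when a replicate was left out, and 3 fell with library size alone and 2 with at least 10 counts in every sample, with thinned counts and with limma-voom. For Psmb7, the log2 fold change was 0.108 (library size alone), 0.0931 (GC and length offsets) and 0.0943 (the same with the replicate block), each past the threshold no longer, and 0.108 to 0.153 when a replicate was left out. Signs turned for values near 0: Psmb8 at 0.0125 (GC and length offsets), 0.0116 (with the block) and -0.0461 to 0.0371 (a replicate left out), Psmb10 at -0.025 to 0.022, Psme2b at -0.21 to 0.0493, Nlrc5 at 0.0238 and 0.0217 (offsets without and with the block) and -0.039 to 0.00584, Nfe2l1 at -0.00295 (library size alone) and -0.00309 to 0.0301, and Psmd7 at -0.00128 (library size alone) and -0.00775 to 0.0266. The cause of these changes was not tested. Same-numbered samples of both groups deviated together with r = 0.011, 0.015 and 0.007. These values run over all genes tested, scarce ones included, where counting error can hide a shared deviation. They do not settle whether the numbers pair the samples. With the replicate block, 11 proteasome genes rose, Psmb4 being added, with 536 genes higher and 513 lower in all. At 15843045 to 24639756 counts a library and 3 libraries a group, the 95% interval of a proteasome gene's log2 fold change was widest for scarce genes such as Psme2b (-0.46 to 0.29), and a gene that did not pass cannot be taken as unchanged.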
